A study of Mus musculus with 10 samples.

Results

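The GDNF family is described here by 8 genes in mouse trigeminal ganglion: the signalling receptor Ret, its co-receptors Gfra1, Gfra2, Gfra3 and Gfra4, and the ligand genes Gdnf, Artn and Nrtn. They were chosen by name, and all 8 were matched by Ensembl gene identifier in both deposited tables, which hold 26411 and 55886 genes. In the surgery experiment, 3 pIONT and 3 sham libraries came from ganglia taken 10 days after the operation. In the injection experiment, 2 UCN1 and 2 PBS libraries came from ganglia taken 6 hours after urocortin 1 (UCN1), a peptide of the corticotropin-releasing factor family, or phosphate-buffered saline was injected into the ganglion. The labels give no strain, age or sex, do not say whether a library is 1 animal or a pool, and do not spell out pIONT. P-values therefore set a group difference only against the spread between these libraries, which may be technical. In the limma tests that spread is estimated with help from all genes tested.

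Proteins of the GDNF family are survival and growth factors for subsets of sensory neurons. Each ligand binds a co-receptor that is anchored to the membrane by a lipid, and the pair then activates the receptor tyrosine kinase RET. The preferred pairs are GDNF with GFRα1, neurturin (from Nrtn) with GFRα2, artemin (from Artn) with GFRα3 and persephin with GFRα4. In sensory ganglia RET marks many non-peptidergic nociceptors and some low-threshold mechanoreceptors, while GFRα3 is found on many peptidergic nociceptors.

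Levels are in FPKM, the reads of a gene divided by its length and by the depth of the library. Surgery libraries held 24.1 to 29.6 M (mega) reads in genes, and injection libraries 15.7 to 17.1 M. All 12 pan-neuronal markers were at 0.5 FPKM or more in each of the 10 libraries. Summed FPKM of the markers of other cells differed between groups. In the surgery experiment 11 macrophage markers summed to 358 to 866 FPKM in pIONT, highest in pIONT 2, against 166 to 307 FPKM in sham. The 11 Schwann cell markers summed to 4098 to 4405 FPKM in pIONT, against 4908 to 5426 FPKM in sham, and 10 endothelial and mural markers to 49.4 to 53.9 FPKM in pIONT, against 55 to 63.9 FPKM in sham. The 10 satellite glia markers summed to 3261 to 3917 FPKM in pIONT, against 2915 to 3117 FPKM in sham. Most of that sum was Apoe, at a mean of 2474 FPKM in pIONT and 1961 FPKM in sham (limma adjusted p = 0.074). The median log2 fold change of the satellite glia list was 0.04. The 12 pan-neuronal markers summed to 7344 to 7470 FPKM in pIONT, against 6215 to 6771 FPKM in sham. At a limma adjusted p of 0.05, 4 of them were called higher and 5 lower, beside 10.5% and 12.3% of all genes tested. Their median log2 fold change was -0.18. Tubb3, at a mean of 2149 FPKM in pIONT and 1162 FPKM in sham, and Stmn2, at 457 FPKM in pIONT and 187 FPKM in sham, carried the higher sum, while Snap25, Nefh and Rbfox3 fell (log2 fold changes -0.59, -0.43 and -0.35). The 8 pituitary markers summed to 179 to 205 FPKM in pIONT, against 867, 198 and 362 FPKM in sham 1 to 3, and none of these 6 lists had a marker at 0 in a surgery library. Values of some members without pIONT 2 or sham 1 are given below, with those of Gfra2, Gfra3, Gfra4 and Nrtn in the last part. The part of these cells in the results below was not tested, and in whole ganglia fewer cells of a type and less RNA per cell cannot be told apart.

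After pIONT the co-receptor genes changed while the receptor gene did not pass the test. Gfra1 rose 3.27-fold and Gfra3 rose 1.36-fold, while Gfra2 and Gfra4 fell to 0.751 and 0.746 times the sham mean. Of the 8 members 6 passed the filter of a mean of 0.5 FPKM. Of these 2 were called higher and 2 lower, that is, at a Benjamini-Hochberg adjusted p of 0.05 in limma over all genes tested. Among the 14672 genes tested 22.8% were called in this comparison, 10.5% higher and 12.3% lower. pIONT and sham libraries were fully separated for 5 of the 6 members, and for 43.4% of all genes tested.

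**Figure D1:**
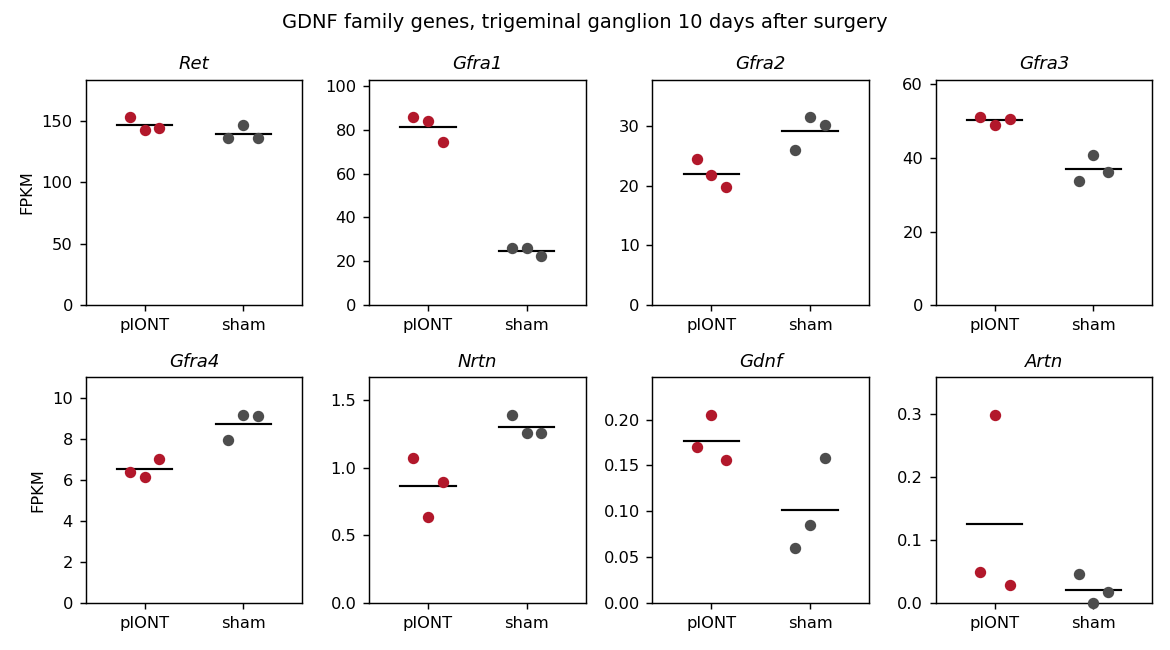
FPKM of the 8 members in each library of the surgery experiment, pIONT in red and sham in grey, with a line at the group mean and an axis from 0 in each panel. Gfra1 sits at 74.2 to 85.6 FPKM in pIONT and at 22.2 to 26.2 FPKM in sham, while the groups overlap for Ret.

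Ret encodes the receptor through which all ligands of the family signal. Its level was 153, 143 and 144 FPKM in pIONT 1 to 3, against 136, 147 and 136 FPKM in sham 1 to 3. The groups overlapped, because sham 2 was higher than pIONT 2 and 3. The log2 fold change was 0.07 (95% confidence interval -0.05 to 0.19, limma adjusted p = 0.353). Ret was among the most abundant genes of the ganglion, at percentile 98.4 of the mean FPKM of all genes tested. Positions here are on GRCm38, the build of the injection table, where Ret (ENSMUSG00000030110) spans 118151745 to 118197718 of chromosome 6.

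Gfra1 (ENSMUSG00000025089, chromosome 19, 58235604 to 58455909), the co-receptor for GDNF, had 85.6, 83.8 and 74.2 FPKM in pIONT 1 to 3, against 26.2, 26.2 and 22.2 FPKM in sham 1 to 3. Every pIONT library was far above every sham library. On the log2 scale the difference was 1.69 (SE 0.08, 95% interval 1.49 to 1.89, limma adjusted p = 6.31e-05), and it ranked 86 of 14672 genes from the highest. It was called in all 16 alternatives, with log2 fold changes of 1.61 to 1.75. The value rests on 11981 to 13379 reads per pIONT library and 2927 to 4123 reads per sham library. Exons of Gm16277 on the opposite strand overlap 7.6% of the exon bases of Gfra1. That gene was at 0.0591 FPKM in pIONT 1 and at 0 in pIONT 2 and 3 and in all 3 sham libraries.

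Gfra3 (ENSMUSG00000024366, chromosome 18, 34689898 to 34720387), the co-receptor for artemin, had 51, 48.9 and 50.6 FPKM in pIONT 1 to 3, against 33.7, 40.8 and 36.1 FPKM in sham 1 to 3. The lowest pIONT library was above the highest sham library, and pIONT libraries were closer together than sham libraries. The difference in log2 units was 0.44 (SE 0.07, limma adjusted p = 0.00658), called in all 16 alternatives with values of 0.38 to 0.52.

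Gfra2 (ENSMUSG00000022103, chromosome 14, 70890120 to 70979838), the co-receptor for neurturin, had 24.4, 21.7 and 19.7 FPKM in pIONT 1 to 3, against 26, 31.4 and 30.1 FPKM in sham 1 to 3. The groups did not overlap, but pIONT 1 and sham 1 lay close together. The log2 fold change was -0.41 (SE 0.10, limma adjusted p = 0.0249). The call was lost in 5 of 16 alternatives, without pIONT 2 (-0.40, limma adjusted p = 0.064), without pIONT 3 (-0.33, limma adjusted p = 0.0573), without sham 2 (-0.35, limma adjusted p = 0.0753), without sham 3 (-0.38, limma adjusted p = 0.0877) and with the replicate number as a block (-0.41, limma adjusted p = 0.0668).

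Gfra4 (ENSMUSG00000027316, chromosome 2, 131039632 to 131043088), the co-receptor for persephin, was the least abundant of the co-receptors, with 6.4, 6.16 and 7.05 FPKM in pIONT 1 to 3, against 7.97, 9.19 and 9.14 FPKM in sham 1 to 3. All pIONT libraries were below all sham libraries. Its log2 fold change was -0.40 (SE 0.07, limma adjusted p = 0.0115), called in all 16 alternatives with values of -0.46 to -0.36. The highest adjusted p among them was 0.0499 in limma, without sham 3. Exons of the microRNA gene Mir6973b on the same strand overlap 3.7% of its exon bases.

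The start regions of Gfra1 and Gfra4 are shown because Gfra1 had the largest change among the co-receptors and Gfra4 a change in the other direction. The sequences are from the RefSeq promoter table on GRCm38.p6, upstream of an annotated start, on the minus strand, 5′ to 3′. Capitals mark E-box letters (CANNTG) and AP-1 letters (TGANTCA), searched on both strands with the CRE half-site TGACG. For Gfra1 only the 62 bases between an inner start and an upstream annotated exon are shown, at chr19:58455399-58455460. This start lies inside the span of Gfra1, which reaches 58455909, and the bases before that outer end were not searched. For Gfra4 the windows of 250 bases before the inner start, chr2:131042683-131042932, and before the outer start, chr2:131043089-131043338, are shown.
Gfra1: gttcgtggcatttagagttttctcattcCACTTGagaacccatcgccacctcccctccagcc
Gfra4 inner start: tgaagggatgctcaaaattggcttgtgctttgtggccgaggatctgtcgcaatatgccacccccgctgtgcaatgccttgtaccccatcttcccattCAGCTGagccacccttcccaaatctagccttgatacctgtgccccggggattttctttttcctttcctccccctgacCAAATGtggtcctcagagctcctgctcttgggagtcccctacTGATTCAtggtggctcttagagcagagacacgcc
Gfra4 outer start: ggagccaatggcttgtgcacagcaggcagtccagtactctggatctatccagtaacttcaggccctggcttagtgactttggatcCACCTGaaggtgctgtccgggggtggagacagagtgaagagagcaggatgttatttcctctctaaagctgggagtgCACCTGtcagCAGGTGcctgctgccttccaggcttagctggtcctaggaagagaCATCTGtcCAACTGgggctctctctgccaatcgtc

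AP-1 sites are bound by the injury-induced factors ATF3 and JUN, and the letters searched allow any base in the middle. Whether any factor binds the match given here was not tested. These letters were found once in the inner Gfra4 window, as TGATTCA with T in the middle, starting 34 bases before the start. They were not in the outer Gfra4 window or in the 250 bases before the Gfra1 start, and 6.75% of 32851 windows of that length in the table hold them. CRE half-site letters were in none of these windows and in 17.8% of all. E-box letters were in all 3 windows and in 66.2% of all.

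The mix of co-receptor RNA differed between pIONT and sham. Summed over Gfra1 to Gfra4, the level was 160 ± 7.51 FPKM in pIONT and 99.8 ± 7.31 FPKM in sham (SD, n = 3 each). Gfra1 made up 51.2%, 52.2% and 49% of that sum in pIONT 1 to 3, against 27.9%, 24.4% and 22.7% in sham 1 to 3. Gfra2 made up 13% to 14.6% in pIONT and 27.7% to 30.9% in sham, and Gfra4 3.82% to 4.65% in pIONT and 8.49% to 9.37% in sham. Gfra3 rose in level, but its share was 30.4% to 33.4% in pIONT and 35.9% to 37.9% in sham. The share of each co-receptor separated the groups without overlap. The shares are parts of the same sum, so they are not independent, and a rise of Gfra1 alone lowers the others.

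**Figure D2:**
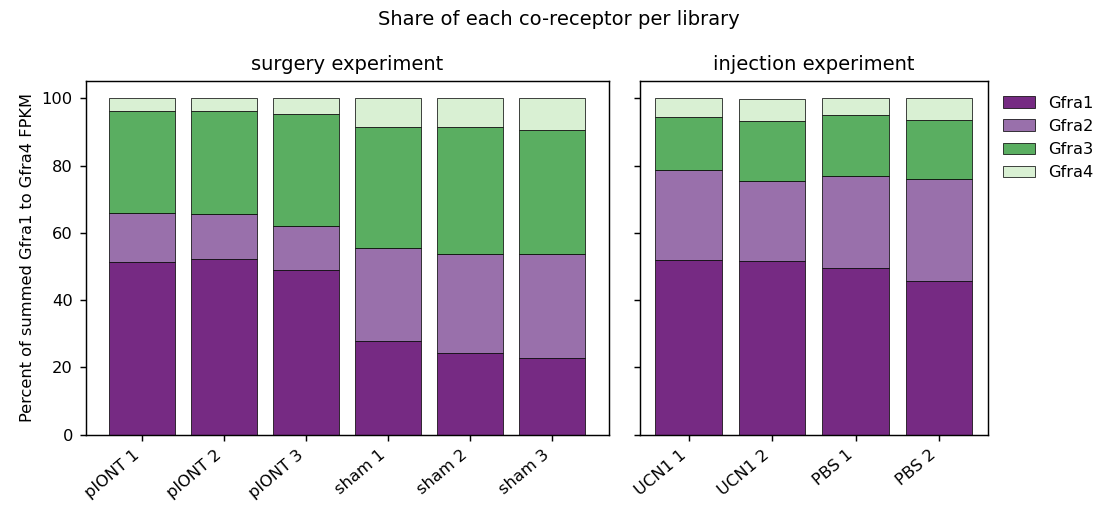
Percent of the summed FPKM of Gfra1 to Gfra4 that each gene makes up, 1 bar per library, surgery experiment left and injection experiment right. The share of Gfra1 is 49% to 52.2% in pIONT and 22.7% to 27.9% in sham, and the 2 tables use different gene lengths, so their bars are not compared with each other.

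Relative to each other, Gfra1 stood at 3.51, 3.87 and 3.77 times Gfra2 in pIONT 1 to 3, against 1.01, 0.835 and 0.736 times in sham 1 to 3. The ratio of Gfra1 to Gfra3 was 1.47 to 1.71 in pIONT and 0.614 to 0.779 in sham, so Gfra1 changed more than Gfra3. The summed co-receptors stood at 1.06 to 1.12 times Ret in pIONT and 0.689 to 0.734 times Ret in sham. None of the 5 ratios tested overlapped between the groups, and each had an exact two-sided permutation p of 0.1, the smallest that 3 against 3 libraries allow and so above 0.05, also after adjustment over the 5.

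The order of levels between genes depends on the length that each read count is divided by. The surgery table fits the union of exons as length, 5476 bases for Gfra1, while the mean transcript length of Gfra1 is 2055 bases. As deposited, Gfra3 was the highest co-receptor in all 3 sham libraries and Gfra1 in all 3 pIONT libraries. With the mean transcript length, an alternative chosen after seeing the data, Gfra1 was the highest in every library and made up 66.6% to 69.3% of the sum in pIONT and 35.6% to 42.4% in sham. The direction of each shift in share was the same with either length. Another length scales a gene alike in all libraries and leaves its fold change as it was, so this is a weak check.

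Ligand RNA in the ganglion was low throughout. Nrtn (ENSMUSG00000039481, chromosome 17, 56751325 to 56757530), the gene of neurturin, had 1.07, 0.637 and 0.891 FPKM in pIONT 1 to 3, against 1.39, 1.26 and 1.26 FPKM in sham 1 to 3. The groups did not overlap, and the reads behind these values were 28, 19 and 27 in pIONT and 39, 37 and 31 in sham. The log2 fold change was -0.41 (95% interval -0.72 to -0.11) and did not pass over all genes tested (limma adjusted p = 0.0606). It passed in 1 of 15 alternatives, without pIONT 1 (-0.52, limma adjusted p = 0.0403).

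Gdnf (ENSMUSG00000022144, chromosome 15, 7810846 to 7837575) and Artn (ENSMUSG00000028539, chromosome 4, 117926162 to 117929763) were below the filter, so they had no test among the others. Gdnf was at 0.17, 0.205 and 0.156 FPKM in pIONT 1 to 3, against 0.0596, 0.0852 and 0.158 FPKM in sham 1 to 3. Sham 3 lay within the pIONT range. Together these were 55 reads in pIONT and 29 in sham, a ratio of read rates of 1.8 with an exact 95% interval of 1.13 to 2.93 for counting error only. With no filter the log2 fold change was 0.18 (limma adjusted p = 0.202).

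Artn depended on a single library. It had 3, 21 and 2 reads in pIONT 1 to 3, against 3, 0 and 1 reads in sham 1 to 3, which is 0.0488, 0.299 and 0.0281 FPKM in pIONT and 0.0455, 0 and 0.0172 FPKM in sham. The ratio of read rates was 6.18 (exact 95% interval 2.14 to 24.4, counting error only), and 1.82 (0.391 to 9.15) without pIONT 2. That library also had the highest sums of macrophage markers, 866 FPKM against 402 and 358 FPKM in pIONT 1 and 3, and of fibroblast and meningeal markers, 378 FPKM against 239 and 240 FPKM. Within pIONT it was highest as well for nerve injury markers (3447 against 2662 and 2223 FPKM) and satellite glia markers (3917 against 3408 and 3261 FPKM). The same held for Schwann cell, endothelial and mural, pan-neuronal and oligodendrocyte markers, while pituitary markers were lowest there (179 against 203 and 205 FPKM). The part of any of these cells in the Artn reads was not tested. With no filter the log2 fold change was 0.24 (limma adjusted p = 0.423).

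The genes whose profiles over the 6 surgery libraries were nearest to a called co-receptor were found by the root mean square difference of log2 values from the sham mean, among 12022 genes. Nearest to Gfra1 were Stmn4, a regulator of microtubules in neurons, at a difference of 0.079 and with 55.7 ± 7.91 FPKM in pIONT and 17 ± 1.39 FPKM in sham, and the cholesterol exporter Abca1 at 0.12. Nearest to Gfra2 were Chdh, a choline dehydrogenase, at 0.061 and the arginine methyltransferase gene Prmt8 at 0.073. Gfra3 was nearest to Nme4, a nucleoside diphosphate kinase, at 0.039 and Serinc2 at 0.057. Gfra4 was nearest to Lpcat4, an acyltransferase of lysophospholipids, at 0.022 and Rnf208 at 0.035. Small differences are common where changes are small, and these are likenesses of pattern only.

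Genes that work with RET were counted in 4 lists of 50 genes, of which 45 were tested, 8 called higher and 12 lower after pIONT. Over all 14672 genes tested 22.8% were called, 10.5% higher and 12.3% lower. The count of 20 is 13 without sham 1. Their median log2 fold change was -0.01, against -0.02 over all genes tested. Pspn, the gene of persephin, was the only tested member of the list of other family genes, at 0.708 ± 0.301 FPKM in pIONT and 0.632 ± 0.148 FPKM in sham (SD, n = 3 each), and was not called (limma adjusted p = 0.842). Gfral and Gdf15, a receptor and ligand pair that also uses RET, were below the filter.

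Among 6 other membrane proteins written as possible RET partners 2 rose and 1 fell (median 0.10). Calls over all genes tested were 10.5% higher and 12.3% lower. Itgb1, the integrin beta 1 chain, rose by 0.55 in log2 units (limma adjusted p = 0.00359), with 128 ± 12.5 FPKM in pIONT and 87.2 ± 2.37 FPKM in sham. Ncam1, a cell adhesion molecule that can bind GDNF with GFRα1, rose by 0.32 (limma adjusted p = 0.0106). The tetraspanin gene Cd9 fell by 0.15 (limma adjusted p = 0.0477) and was called in only 6 of 16 alternatives.

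Of 26 tested genes of adaptors and kinases downstream of RET 6 rose and 6 fell (median 0.03), while 22.8% of all genes tested were called. The 12 calls were 7 without sham 1 and 7 without sham 2. Irs2, an insulin receptor substrate, rose by 1.02 in log2 units (limma adjusted p = 0.000285), with 15.7 ± 1.41 FPKM in pIONT and 7.48 ± 0.367 FPKM in sham. The adaptor gene Grb10 rose by 0.70 (limma adjusted p = 0.00632), and Pdlim7, whose protein Enigma binds RET, by 0.36 (limma adjusted p = 0.00346). Shc2, an adaptor that links receptors to RAS, rose by 0.30 (limma adjusted p = 0.00425). These 4 were called in all 16 alternatives.

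In the list of feedback inhibitors and targets of receptor tyrosine kinases 5 of 12 tested genes fell and 0 rose (median -0.21). The share called lower over all genes tested was 12.3%. Dusp5, a dual-specificity phosphatase, had 10.4 ± 0.935 FPKM in pIONT and 14.3 ± 0.74 FPKM in sham (log2 fold change -0.44, limma adjusted p = 0.00783). Spry4, a sprouty inhibitor, fell by 0.37, the transcription factor gene Etv1 by 0.40 and Spred2, an inhibitor of RAS signalling, by 0.28 (limma adjusted p = 0.0118, 0.0118 and 0.0127). All 4 were called in all 16 alternatives.

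Markers of the neurons that carry these receptors were counted as well. Of 16 tested markers of non-peptidergic and other RET-associated neurons 6 fell and 0 rose (median -0.28), where 12.3% of all genes tested were called lower. Only 3 were called without pIONT 2, without sham 2, without sham 3, with no filter and with the replicate number as a block. Mafa and Maf, transcription factors of RET-positive mechanoreceptors, fell by 1.11 and 0.30 on the log2 scale (limma adjusted p = 0.0019 and 0.00632). The lysophosphatidic acid receptor gene Lpar3 fell by 0.34 (limma adjusted p = 0.0116). Runx1, a transcription factor that non-peptidergic nociceptors need, fell by 0.26 (limma adjusted p = 0.025) and was called in 10 of 16 alternatives. Ret itself, which marks these neurons, did not pass in this comparison, as given above.

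Of 8 tested markers of peptidergic nociceptors 1 rose and 3 fell (median -0.18), beside 10.5% and 12.3% of all genes called higher and lower. Adcyap1, the gene of the neuropeptide PACAP, rose by 1.58 in log2 units (limma adjusted p = 0.000165), with 47.2 ± 6.6 FPKM in pIONT and 15.4 ± 0.493 FPKM in sham. The list also holds the cold channel gene Trpm8, which fell by 1.10 (limma adjusted p = 0.00472). Calcb, which encodes a CGRP peptide, fell by 0.29 (limma adjusted p = 0.00859). Calca, Tac1, Trpv1 and Smr2 of the list were not called, at log2 fold changes of -0.11, -0.23, 0.05 and -0.13. Gfra3, which many peptidergic nociceptors carry, was higher in the same libraries. All 13 nerve injury markers rose (median 4.65), with Sprr1a, Nts, Gpr151 and Ecel1 at 9.62, 5.50, 5.43 and 4.65.

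**Figure D3:**
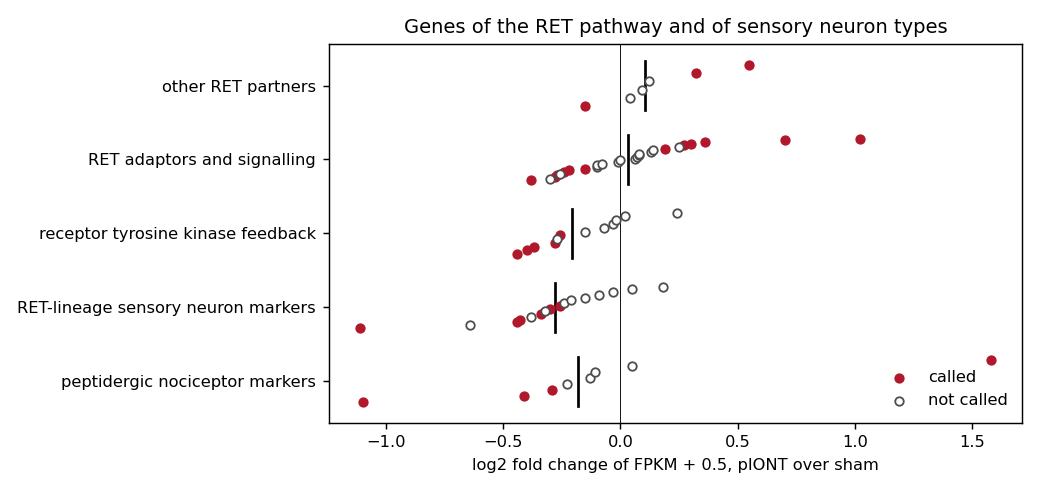
Log2 fold change of FPKM + 0.5, pIONT over sham, of each tested gene in 5 lists, filled where called at an adjusted p of 0.05 and open where not, with a bar at the median of each list. Among the feedback genes and the markers of RET-associated neurons all called genes lie below 0, and the adaptors lie on either side of it.

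After UCN1 none of the 6 tested members was called, and UCN1 and PBS libraries were fully separated for 3 of them. Among the 16139 genes tested 0.601% were called and 45.5% were fully separated. At an unadjusted p of 0.05 in limma 1 of the 6 members, Gfra1, passed, near the share of 13.1% among all genes tested, and voom on recovered reads called 0 of them.

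Gfra1 had 110 and 109 FPKM in UCN1 1 and 2, against 93.9 and 77.3 FPKM in PBS 1 and 2. UCN1 libraries were close together and above both PBS libraries, which lay further from each other than PBS 1 did from either UCN1 library. The log2 fold change was 0.36 (95% interval 0.11 to 0.60, unadjusted p = 0.00995, limma adjusted p = 0.231). It was 0.22 without PBS 2 and 0.50 without PBS 1, with an adjusted p of 0.0664 to 0.728 over the 14 alternatives in limma.

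Ret had 270 and 287 FPKM in UCN1 1 and 2, against 259 and 270 FPKM in PBS 1 and 2. The groups overlapped slightly, and the log2 fold change was 0.07 (95% interval -0.11 to 0.26, limma adjusted p = 0.734). Gfra2 had 57.4 and 50.1 FPKM in UCN1, against 52.2 and 51.5 FPKM in PBS, with the PBS values between the UCN1 values (log2 fold change 0.05, 95% interval -0.18 to 0.28, limma adjusted p = 0.874). Its sign turned without UCN1 1, at -0.05.

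Gfra3 had 33.4 and 37.2 FPKM in UCN1, against 34 and 29.7 FPKM in PBS, with overlap (log2 fold change 0.15, 95% interval -0.11 to 0.41, limma adjusted p = 0.612). Gfra4 had 11.6 and 14.3 FPKM in UCN1, against 9.6 and 10.8 FPKM in PBS. The groups did not overlap, and the log2 fold change was 0.32 (95% interval -0.01 to 0.66, limma adjusted p = 0.399). Leaving out 1 library gave 0.05 (without PBS 2) to 0.24 (without PBS 1) for Gfra3 and 0.18 (without UCN1 2) to 0.47 (without UCN1 1) for Gfra4. The intervals of Gfra3 and Gfra4 include the log2 fold change of Gfra1, so the data do not show that they stayed level.

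**Figure D4:**
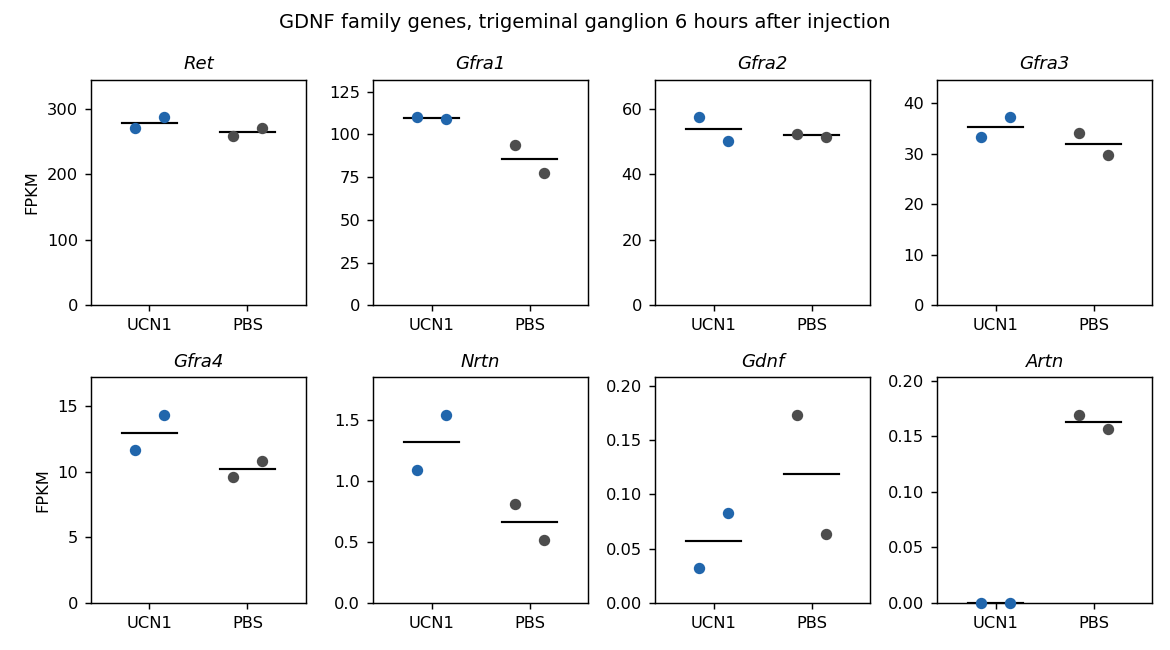
FPKM of the 8 members in each library of the injection experiment, UCN1 in blue and PBS in grey, with a line at the group mean and an axis from 0 in each panel. Gfra1 is at 110 and 109 FPKM in UCN1 and at 93.9 and 77.3 FPKM in PBS, and Artn is at 0 in both UCN1 libraries.

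Nrtn had 1.09 and 1.54 FPKM in UCN1 1 and 2, against 0.81 and 0.516 FPKM in PBS 1 and 2, from 19 and 26 reads in UCN1 and 13 and 9 in PBS. The groups did not overlap. Its log2 fold change was 0.64, with a 95% interval of -0.08 to 1.36 (limma adjusted p = 0.429). The read rates had a ratio of 1.99 (exact 95% interval 1.17 to 3.48), an interval that leaves out the spread between libraries.

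Gdnf had 2 and 5 reads in UCN1 1 and 2, against 10 and 4 reads in PBS 1 and 2, which is 0.0319 and 0.0824 FPKM in UCN1 and 0.173 and 0.0639 FPKM in PBS. The groups overlapped. Artn had 0 reads in both UCN1 libraries, where 3 reads would be 0.156 and 0.161 FPKM, against 3 reads in each PBS library, at 0.169 and 0.156 FPKM. Each library was at or under 3 reads of Artn, so no fold is given for it. With no filter neither gene was called (limma adjusted p = 0.752 for Gdnf and 0.497 for Artn).

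The mix of co-receptors was set out in the same way. Gfra1 made up 51.8% and 51.6% of the summed FPKM in UCN1 1 and 2, against 49.5% and 45.7% in PBS 1 and 2. The ratio of Gfra1 to Gfra2, 1 of 5 tested, was 1.91 and 2.17 in UCN1, against 1.8 and 1.5 in PBS. Its exact two-sided permutation p was 0.333, the smallest that 2 against 2 libraries allow. Gfra1 to Gfra3 and Gfra1 to Ret also did not overlap, at the same permutation p. Gfra3 to Gfra2 (0.582 and 0.743 in UCN1, 0.651 and 0.577 in PBS) overlapped, at a permutation p of 0.667. So did the summed co-receptors to Ret (0.787 and 0.732 in UCN1, 0.733 and 0.627 in PBS), at the same 0.667. In these libraries the pituitary markers, 9 in the list, summed to 215 and 228 FPKM in UCN1, against 326 and 360 FPKM in PBS. Most of that sum was Chga, at 212 FPKM in UCN1 and 220 FPKM in PBS. Of 6 tested 3 were called lower, Gh, Prl and Pomc, at log2 fold changes of -4.03, -3.15 and -1.84. Over all genes tested 0.297% were called lower. The fibroblast and meningeal markers, 11 in the list, summed to 893 and 873 FPKM in UCN1, against 1168 and 889 FPKM in PBS. Of 10 tested 3 were called lower, beside that 0.297% of all genes. They were Mfap4, Fmod and Slc47a1, at log2 fold changes of -4.73, -3.98 and -3.24. Markers at 0 in the UCN1 libraries were Slc22a6 in UCN1 1 and Slc47a1 in UCN1 2 of the meningeal list, and Lhb and Pou1f1 in both of the pituitary list, with Cga and Ghrhr also at 0 in UCN1 2. Lhb was also at 0 in both PBS libraries and Pou1f1 in PBS 2. The part of these tissues in the member values was not tested.

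**Figure D5:**
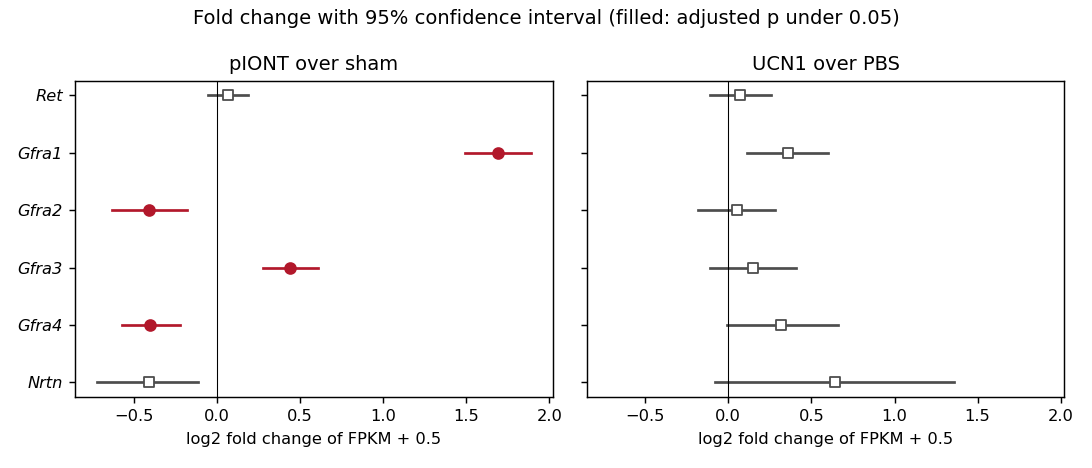
Log2 fold change of FPKM + 0.5 with its 95% confidence interval for the 6 tested members, pIONT over sham on the left and UCN1 over PBS on the right, on the same scale. Filled circles were called and open squares were not, and Gfra1 stands at 1.69 after pIONT and at 0.36 after UCN1.

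None of the 45 tested genes of the 4 RET pathway lists was called after UCN1, where 0.601% of all genes tested were called. At an unadjusted p of 0.05 in limma 10 passed, beside 13.1% of all genes. Voom on recovered reads called 7 of these genes and 352 of 15753 genes in all. In the feedback list 6 of 12 genes passed the unadjusted p, beside that 13.1% of all genes, with a list median of 0.27 against -0.01 over all genes. Of its members Etv5, an ETS transcription factor gene and the most abundant, had 83.9 ± 1.56 FPKM in UCN1 and 71.3 ± 4.67 FPKM in PBS (SD, n = 2 each, limma adjusted p = 0.323). Spred2 had 38.4 ± 0.776 FPKM in UCN1 and 36.5 ± 2.46 FPKM in PBS (limma adjusted p = 0.787). The 7 genes that voom called are named after their values were seen. Higher were Irs2, Spry4, Shc1, Spry1 and Etv4, at log2 fold changes of 0.59, 0.62, 0.42, 1.07 and 0.94 (voom adjusted p = 0.00495, 0.0114, 0.0197, 0.0441 and 0.0441). Lower were Gas1 and Pik3r1, at -0.98 and -0.36 (voom adjusted p = 0.0161 and 0.0429).

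Among adaptors and kinases the most abundant was the kinase gene Mapk3, at 1169 ± 68.6 FPKM in UCN1 and 1128 ± 25.8 FPKM in PBS (limma adjusted p = 0.843). Among membrane partners Cd9 was at 510 ± 30.8 FPKM in UCN1 and 530 ± 40.8 FPKM in PBS and Sdc3, the syndecan-3 gene, at 187 ± 16.5 FPKM in UCN1 and 202 ± 13.9 FPKM in PBS (limma adjusted p = 0.838 and 0.664). Pspn was at 0.746 ± 0.694 FPKM in UCN1 and 0.584 ± 0.125 FPKM in PBS (limma adjusted p = 0.958).

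Of 16 tested markers of RET-associated neurons and 9 of peptidergic nociceptors none was called in limma after UCN1, where 0.601% of all genes were called. At an unadjusted p of 0.05 in limma 3 and 2 passed, shares near the 13.1% of all genes, and voom called 0 in either list. The purine receptor gene P2rx3 was at 128 ± 2.67 FPKM in UCN1 and 125 ± 10.4 FPKM in PBS, and Plxnc1, a semaphorin receptor, at 88.8 ± 0.0834 FPKM in UCN1 and 84 ± 2.82 FPKM in PBS. Calca, the gene of the peptide CGRP, was at 780 ± 67.9 FPKM in UCN1 and 644 ± 60 FPKM in PBS, and Tac1, the gene of substance P, at 134 ± 20.9 FPKM in UCN1 and 125 ± 9.13 FPKM in PBS (SD, n = 2 each). Of 10 tested nerve injury markers Atf3 rose, at 20.7 ± 0.414 FPKM in UCN1 and 8.9 ± 1.46 FPKM in PBS (log2 fold change 1.18, limma adjusted p = 0.0178), while 0 of these markers were called without UCN1 1, without UCN1 2, without PBS 2, with no filter and with no trend, and 3 with voom.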

How the data were processed

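The authors deposited 1 table of FPKM per experiment. STAR, HTSeq, DESeq2 and the build GRCm39 are named, with no version or role, per the submitters' processing notes. Of the 55141 identifiers of the injection table that GENCODE vM21 holds, 99.4% had its coordinates on GRCm38, so positions are given on that build, and positions of the surgery table are not printed. The smallest FPKM values fell on whole reads, within 0.1 reads up to 20 reads, for 92.2% to 92.6% of values with the union of exons as length in the surgery table and 98.8% to 99.0% with the mean transcript length in the injection table. This spacing gave the depths and read numbers. Levels and tests were not compared between the tables.

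Genes with a mean of at least 0.5 FPKM were tested in limma 3.58.1 (R 4.3.3) on the log2 of FPKM + 0.5. The fit had an intensity trend in the variance and no covariate. Benjamini-Hochberg adjustment was over the genes tested in each table, after the filter, at 0.05. Fold changes are on that scale and come out too small for low genes. Libraries of a group differed beyond sampling noise, at 5.86 to 14.9 chi-square units per degree of freedom, so no library was treated as a duplicate. Intervals of read rates cover counting error only.

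The members and gene lists were chosen with earlier results of these data known. All members are named. From each list of the pathway, neuron and injury markers up to 4 called genes by smallest p are named, or the 2 most abundant where none was called. Some genes that this rule names are not reported here. For each called member the 2 nearest genes with a symbol and a mean of at least 1 FPKM are named, leaving out predicted genes, Rik clones and pseudogenes. Alternatives were other pseudocounts, filters and scalings, no trend, array weights, voom on recovered reads, the replicate number as a block and leaving out each library. With 1 library left in a group, its spread is taken to be that of the other group.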

Additional observations from a re-analysis of the deposited data

How the results depend on the processing

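Of the 6 members tested after pIONT, all kept their direction in every alternative run, and Ret, Gfra1, Gfra3 and Gfra4 their side of the threshold. Gfra2 lost its call with a replicate block (-0.41), and Nrtn was not tested at a filter of 2 FPKM in either experiment. Leaving out a library gave -0.49 (without sham 1) to -0.33 (without pIONT 3) for Gfra2. For Nrtn it gave -0.52 (without pIONT 1, where Nrtn was called) to -0.28 (without pIONT 2). Without sham 1 Gfra3 was at 0.38 and Gfra4 at -0.46. The number of genes called after pIONT was 1689 (without sham 3) to 2969 with a library left out, 2076 without sham 2 and 2085 with the replicate block, against 3344 as reported. Calls in the RET pathway lists, 20 as reported, were 13 to 20 with a library left out and 21 with voom. Markers of RET-associated neurons had 3 calls with the replicate block, against 6. The share of higher calls, 46% as reported, was 36.7% with TPM and 54.5% with median-of-ratios scaling.

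After UCN1 the number of genes called, 97 as reported, was 2 with no filter, 155 at 2 FPKM, 5 with no trend, 352 with voom, 260 with the replicate block and 5 to 38 with a library left out. Gfra2 gave -0.05 to 0.15 with a library left out, reversed without UCN1 1. The RET pathway lists had 7 calls with voom and 2 with the replicate block, and the nerve injury markers 3 with either. The cause of these differences was not tested.

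The replicate numbers share no stated origin. Deviations of same-numbered surgery libraries correlated at -0.0551, -0.202 and 0.0676 and those of the injection libraries at 0.0387, so the block is no paired analysis.

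Depth limits Gdnf, Artn and Nrtn, which rest on 0 to 39 reads per library.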
